A study of Mus musculus with 6 samples.

Results

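The guanylate-binding proteins (GBPs) are large GTPases of the dynamin superfamily, and the mouse genes analysed here were Gbp2b, Gbp2, Gbp3, Gbp4, Gbp5, Gbp6, Gbp7, Gbp8, Gbp9 and Gbp10. These 10 genes were taken by gene name from a table of 54532 genes, and the rule uses no measured value, although earlier results of these data were known. The study used N9 cells, an immortalised mouse microglial line, grown in RPMI medium with serum and antibiotics. The 3 control libraries came from untreated N9 cells, and the 3 LPS libraries came from N9 cells given lipopolysaccharide (LPS), the endotoxin of Gram-negative bacteria, at 1 µg/ml for 6 h. The comparison asks which microglial transcripts respond to this endotoxin. A single cell line stands in for microglia here, and the labels do not say whether the replicates were separate cultures, so every p-value below measures the spread between these 6 samples, which may be technical.

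Interferons are the classical inducers of GBP genes in macrophages. LPS binds Toll-like receptor 4, whose adaptor TRIF leads to the release of type I interferon, and transcription factors that interferon activates bind a DNA element known as the interferon-stimulated response element (ISRE). GBP proteins hydrolyse GTP, assemble on the membranes of intracellular bacteria and parasite vacuoles, and promote the sensing of cytosolic LPS by caspase-11. Microglia are the resident macrophages of the brain.

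The 6 libraries held between 16363767 and 17956772 counts, so that 3 counts corresponded to between 0.161 and 0.19 CPM, a count scaled by its library size after TMM normalization. The myeloid genes Csf1r, Cd68, Spi1 and Ptprc were counted at 3421 or more reads in each library, whereas the microglial genes P2ry12 and Aif1 had 3 to 9 counts, and 10 of 12 microglial markers were abundant enough to test. Hepatocyte transcripts, of which 0 of 14 passed the filter, summed to 9, 295 and 490 counts in control replicates 1, 2 and 3 and to 6, 5 and 12 counts with LPS. Their part in the GBP results was not tested. Each GBP gene called a differentially expressed gene (DEG) below remained one with control replicate 1 as the sole control, an alternative added after seeing the data. This library had 64 GBP counts beside 77 and 68 in the other 2 controls. Among markers of other brain cells, Olig2 and Cldn5 were at 0 in all libraries, and Aqp4, Mog, Rbfox3 and Gad1 had at most 2 counts in any library. Other genes of these lists were expressed, among them Mbp, Aldh1l1 and Flt1 with 350 or more counts in each library. In all, 3 of 6 astrocyte markers and 2 of 6 each of the oligodendrocyte, neuronal and endothelial markers were abundant enough to test. The up-regulated DEG were 2, Tubb3 and Kdr, beside 2.4% of all tested genes, and Kdr passed the filter only through LPS libraries. By an adjusted p under 0.05 (edgeR), Gja1 was higher too, and Aldh1l1 fell by 0.29 on the log2 scale, Mbp fell by 0.34, Map2 fell by 0.41 and Flt1 fell by 0.35, on the same background of 18.6% higher and 15.7% lower. Their part in the GBP results was not tested either.

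The promoters are shown because ISRE matches were found in them. RefSeq (GRCm38.p6) gave 250 bases upstream of an annotated start for 5 of the 10 members, Gbp2, Gbp2b, Gbp3, Gbp5 and Gbp7, all on the plus strand of chromosome 3, in 6 windows since Gbp3 had a second start. Gbp4, Gbp6, Gbp8, Gbp9 and Gbp10 had no window. The capitals mark matches to GAAANNGAAA, the core of the ISRE, searched on both strands. All of the matches lie on the minus strand, so they read TTTCNNTTTC in the sequences below, written 5′ to 3′ on the plus strand. The Gbp2 stretch is chr3:142620594-142620623, the Gbp3 stretch chr3:142559794-142560025, the Gbp7 stretch chr3:142530086-142530335, the Gbp5 stretch chr3:142496684-142496899 and the Gbp2b stretch chr3:142594597-142594846. A window that runs into a GENCODE M21 exon is cut before it, and for Gbp2, whose match lies inside an exon of 1 GENCODE transcript, only 30 bases are shown. The Gbp5 stretch lies before the RefSeq start but inside the gene as GENCODE annotates it.

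Gbp2: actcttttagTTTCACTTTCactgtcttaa

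Gbp3: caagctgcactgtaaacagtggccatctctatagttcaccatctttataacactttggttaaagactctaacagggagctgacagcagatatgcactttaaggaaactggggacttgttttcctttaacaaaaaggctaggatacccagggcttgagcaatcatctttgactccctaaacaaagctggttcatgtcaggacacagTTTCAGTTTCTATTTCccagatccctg

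Gbp7: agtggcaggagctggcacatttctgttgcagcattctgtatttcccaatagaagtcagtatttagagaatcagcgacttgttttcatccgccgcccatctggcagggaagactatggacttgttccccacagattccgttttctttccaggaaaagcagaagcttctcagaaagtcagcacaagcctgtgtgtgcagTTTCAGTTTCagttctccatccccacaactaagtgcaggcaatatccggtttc

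Gbp5: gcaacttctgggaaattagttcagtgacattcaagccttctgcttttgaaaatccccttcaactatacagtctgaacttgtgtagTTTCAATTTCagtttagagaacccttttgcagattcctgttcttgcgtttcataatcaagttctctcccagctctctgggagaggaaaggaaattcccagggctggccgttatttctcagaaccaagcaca

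Gbp2b: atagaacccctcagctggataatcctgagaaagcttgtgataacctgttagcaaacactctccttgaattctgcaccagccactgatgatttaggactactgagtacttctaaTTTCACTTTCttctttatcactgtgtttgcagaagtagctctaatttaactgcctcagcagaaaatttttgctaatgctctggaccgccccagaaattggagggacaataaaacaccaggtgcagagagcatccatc

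Counted back from the base before the RefSeq start (-1), the match lay at bases -59 to -50 in Gbp2, -53 to -44 in Gbp7, -165 to -156 in Gbp5 and -137 to -128 in Gbp2b. The first Gbp3 window held 2 overlapping matches, at -45 to -36 and at -39 to -30, and the second Gbp3 window held none. An ISRE match was thus present in 5 of 6 GBP windows. The same letters were found in 978 of all 32851 mouse windows of this length (2.98%), in 2.75% of the windows of tested genes and in 19.0% of the 269 windows of genes up-regulated by LPS, or 17.8% of 264 with the GBP genes left out. The gamma-activated site TTCNNNGAA, an interferon gamma response element that reads the same on both strands, occurred at 2 places in Gbp5, starting at bases -245 and -52, and at 2 places in Gbp7, starting at bases -106 and -87. It was present in 7.02% of all windows and in 9.29% of the windows of genes up-regulated by LPS. A kappaB motif, bound by NF-kappaB, was found only in the Gbp5 window, at bases -77 to -68, against 3.90% of all windows and 9.67% of those of up-regulated genes. These motifs did not overlap one another. A match describes letters in the sequence and not binding, and binding was not measured.

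The 10 genes form 2 clusters. Gbp5, Gbp7, Gbp3, Gbp2b and Gbp2 follow one another on the plus strand within chr3:142493978-142638008, and Gbp8, Gbp9, Gbp4, Gbp10 and Gbp6 lie on the minus strand within chr5:105014150-105293698 (mm10). The coding sequences of the chromosome 5 members were 89.6% to 98.4% identical in the 10 pairs, with Gbp6 and Gbp10 the closest pair. On chromosome 3 the 10 pairs spanned 61.6% to 82.5%. Gbp2 and Gbp2b shared 82.5% and Gbp3 and Gbp7 shared 78.3%, while Gbp3 and Gbp7 were nearer to the chromosome 5 members (71.4% to 75.0%) than to Gbp2, Gbp2b and Gbp5 (61.6% to 63.3%).

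GBP transcripts were higher after LPS, and most of the added reads were from 3 genes of chromosome 3, Gbp7, Gbp3 and Gbp2. Counts of the 10 genes together were 64, 77 and 68 without LPS and 3026, 3180 and 2934 with it, or 3.92 ± 0.388 CPM (SD, n = 3) and 188 ± 8.27 CPM (SD, n = 3), a 48.0-fold difference (p = 0.1, two-sided exact permutation test). A p of 0.1 is the smallest that 3 libraries against 3 can give. In bulk RNA more cells that express a gene and more transcript per cell cannot be told apart. By the thresholds of the study, a Benjamini-Hochberg adjusted p under 0.05 and a log2 fold change (log2FC) over 1.5, the edgeR quasi-likelihood test called 5 of the 10 members as up-regulated DEG, namely Gbp2, Gbp3, Gbp5, Gbp7 and Gbp9. Of all 12296 genes tested, 295 (2.4%) were up-regulated DEG. The other 5 members fell below the filter on low counts and were not tested in this fit. DESeq2 called 7 members, with 327 of 14090 tested genes up-regulated. Without the filter edgeR called 8 members, with 378 of 22311, in a fit that took its variance from all genes together. Gbp5 passed the filter on low counts only through its LPS libraries and so did Gbp9, with only 1 control library above the cutoff of 0.589 CPM, so a difference was built into their passing. In 8 of the 10 members every LPS library lay above every control library, a pattern seen in 15.1% of the 22311 genes with a count and in 23.7% of those tested.

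**Figure D1:**
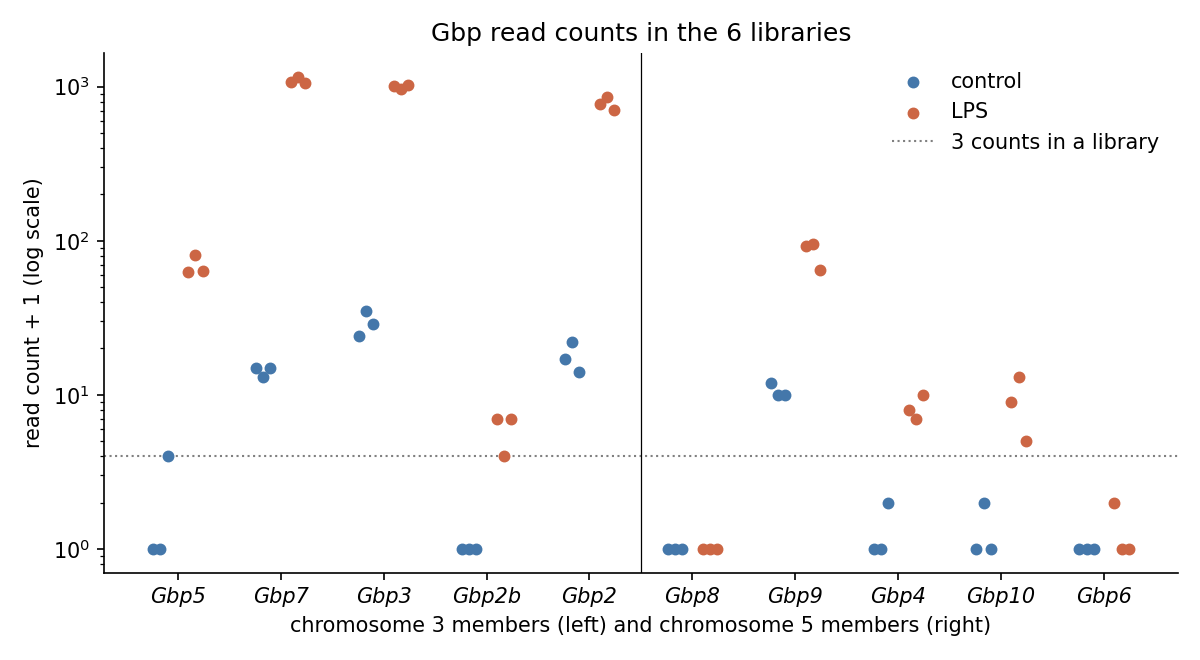
Read counts of each GBP gene plus 1, on a log axis, in the 3 control (blue) and 3 LPS (orange) libraries, with genes in chromosomal order and a dotted line at 3 counts. Gbp7, Gbp3 and Gbp2 rise from 12 to 34 counts in controls to 708 or more with LPS, while Gbp8 has none in any library.

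Gbp7 (ENSMUSG00000040253), which has been linked to assembly of the phagocyte NADPH oxidase, had the highest log2FC of the 4 members whose fold could be estimated. For Gbp5 only a bound can be given. It lies at chr3:142530342-142550149 and was counted 14, 12 and 14 times in controls and 1076, 1161 and 1056 times after LPS. The lowest LPS library was thus far above the highest control. The LPS libraries had a coefficient of variation of 4.83%, where counting alone would give 3.02%. In controls it was 9.14% where counting would give 27.4%, so the control SD understates the counting error. The level of Gbp7 went from 0.750 ± 0.0686 to 67.8 ± 3.27 CPM (SD, n = 3 each), with a log2FC of 6.48 (SE 0.12, edgeR adjusted p = 4.88e-15). This was the 18th largest log2FC of the 12296 tested genes.

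Gbp2 (ENSMUSG00000028270), a prenylated member that is recruited to the vacuoles of Toxoplasma, lies at the far end of the cluster at chr3:142620602-142638008. It had 16, 21 and 13 counts in controls and 767, 853 and 708 counts with LPS. The groups stood clearly apart, although the LPS libraries of Gbp2 scattered more than those of Gbp7 and Gbp3, with a coefficient of variation of 9.38% where counting alone would give 3.59%. Levels were 0.941 ± 0.246 CPM in controls and 47.9 ± 4.50 CPM with LPS (SD, n = 3 each), and the log2FC was 5.66 (SE 0.15, edgeR adjusted p = 3.57e-13).

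Gbp3 (ENSMUSG00000028268), also found on parasite vacuoles, lies between Gbp7 and Gbp2b at chr3:142560026-142573209. Its counts were 23, 34 and 28 without LPS and 1008, 971 and 1024 with LPS. Again no library of one group came near the other. The LPS libraries of Gbp3 varied by 3.85%, close to the 3.16% that counting gives. Its CPM went from 1.59 ± 0.302 to 61.8 ± 2.38 (SD, n = 3 each), a log2FC of 5.27 (SE 0.11, edgeR adjusted p = 3.2e-14).

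The 4th responding gene of chromosome 3 was Gbp5 (ENSMUSG00000105504), which has been tied to assembly of the NLRP3 inflammasome and lies at chr3:142493978-142522344. Control counts of Gbp5 were 0, 0 and 3, and LPS counts were 62, 80 and 63. Since the controls were at or below 3 counts, Gbp5 was at least 25.0-fold higher with LPS, and at least 23.0-fold when the LPS library that raised the bound most was left out (edgeR adjusted p = 3.08e-07). The 3 control counts all came from control replicate 3, one of the libraries with hepatocyte transcripts.

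Gbp2b (ENSMUSG00000040264), formerly named Gbp1, had few reads in either group. It lies at chr3:142594847-142619179, directly before Gbp2, and its coding sequence is the nearest to that of Gbp2. Gbp2b had 0 counts in all control libraries and 6, 3 and 6 counts with LPS. The groups did not overlap, but 1 LPS library was at the limit of 3 counts. It was at least 1.83-fold higher with LPS over a floor of 3 counts per control library (p = 0.1, two-sided exact permutation test, the smallest possible). The filter on low counts kept Gbp2b out of the edgeR test, and without this filter edgeR called it (adjusted p = 0.00869). The fit without the filter took its variance from all genes together, with no weight on the spread of Gbp2b itself. Per length, Gbp2b stood at 0.110 ± 0.0389 RPKM with LPS beside 19.0 ± 1.79 RPKM for Gbp2 (SD, n = 3 each), and both promoters hold an ISRE match.

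On chromosome 5 the response was carried by Gbp9 (ENSMUSG00000029298), at chr5:105077630-105139539, another member reported on parasite vacuoles. Gbp9 had 11, 9 and 9 counts in controls and 91, 94 and 64 counts with LPS. The LPS libraries lay well above the controls, with replicate 3 lower than the other 2. Its level rose from 0.546 ± 0.0847 to 5.13 ± 1.07 CPM (SD, n = 3 each), with a log2FC of 3.22 (SE 0.29, edgeR adjusted p = 4.74e-07). Per length, Gbp9 was near Gbp7 in controls, with 0.105 and 0.134 RPKM, and far below it with LPS, with 0.992 and 12.1 RPKM.

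Gbp4 (ENSMUSG00000079363) and Gbp8 (ENSMUSG00000034438) are annotated with starts next to that of Gbp9, and the 3 genes share an exonic stretch of 60 or 61 bases. Gbp4, at chr5:105115767-105139586, had 0, 0 and 1 counts in controls and 7, 6 and 9 with LPS. Gbp8, at chr5:105014150-105139540, had 0 counts in all 6 libraries, which allows up to 3 counts or 0.161 to 0.19 CPM. With LPS Gbp9 had 0.992 RPKM and Gbp4 0.0604 RPKM, and no Gbp8 transcript was detectable at this depth. Gbp4 was at least 2.68-fold higher with LPS (p = 0.1, two-sided exact permutation test, the smallest possible).

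Gbp10 (ENSMUSG00000105096) and Gbp6 (ENSMUSG00000104713) form the other end of the cluster and are the most alike pair of the family. Gbp10, at chr5:105215699-105239533, had 0, 1 and 0 counts in controls and 8, 12 and 4 counts with LPS. Gbp6, at chr5:105270702-105293698 and likewise known from parasite vacuoles, had a single count, in LPS replicate 1. Gbp10 was at least 2.93-fold higher with LPS, without overlap of the groups (p = 0.1, two-sided exact permutation test, the smallest possible), and no difference was detectable for Gbp6. The split of counts between this pair is uncertain, because 84.1% of the 50-base stretches of Gbp10 and 70.7% of those of Gbp6 also occur in transcripts of other genes, and 46.3% of the exonic bases of Gbp10 and 29.0% of those of Gbp6 are also annotated to the read-through gene Gm43302, which had 0 counts in all libraries. For Gbp2, Gbp2b, Gbp3 and Gbp5 the share of such stretches was 1.44% to 3.75%, for Gbp7 12.7%, for Gbp4 and Gbp9 7.78% and 8.05%, and for Gbp8 18.1%. How reads matching several genes were counted is not given in the sources used here.

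**Figure D2:**
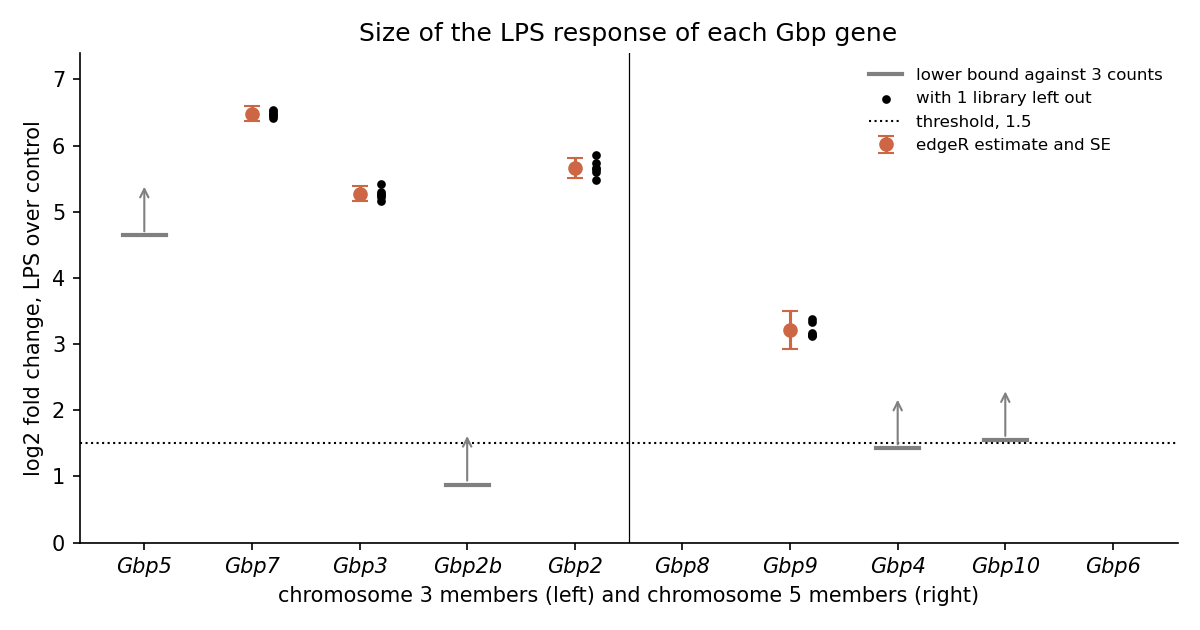
The log2FC of LPS over control for each GBP gene, with points and bars for the edgeR estimate and its SE, black points for fits with 1 library left out, and grey bars with arrows for lower bounds where controls had 3 counts or fewer. Gbp7, Gbp2 and Gbp3 lie between 5.27 and 6.48, Gbp9 at 3.22, and Gbp6 and Gbp8 have no value.

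The summed response is given for each cluster, and the difference between the clusters was not tested. The chromosome 3 members summed to 53, 67 and 58 counts in controls and 2919, 3068 and 2857 with LPS, a 54.5-fold difference in mean CPM that ranged from 52.6 to 58.6 when each library was left out in turn. The chromosome 5 members summed to 11, 10 and 10 counts and to 107, 112 and 77 counts, a 10.5-fold difference with a range of 9.85 to 11.7. All LPS sums lay above all control sums in both clusters (p = 0.1 each, two-sided exact permutation test, the smallest possible). Without Gbp9, the chromosome 5 members had 0, 1 and 1 counts in controls and 16, 18 and 13 with LPS, a ratio of 25.8 with an exact 95% counting interval of 6.76 to 219. The 10.5-fold value of this cluster thus rests on Gbp9.

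Levels of different genes can be compared only per length, which is done here in RPKM, the CPM divided by the gene length in kilobases. With the deposited gene lengths, Gbp2 at 19.0 ± 1.79 and Gbp3 at 18.9 ± 0.730 RPKM (SD, n = 3 each) led the family after LPS and did not differ beyond their spread, and Gbp7 followed at 12.1 ± 0.583. Gbp2 and Gbp3 then stood at percentiles 74.7 and 74.6 of the tested genes, up from 6.30 and 8.31 in controls, and Gbp7 at percentile 63.7, up from 1.81. Gbp9 at 0.992 ± 0.207 and Gbp5 at 0.635 ± 0.0869 RPKM came next, and their LPS libraries did not overlap. Gbp10, Gbp2b and Gbp4 lay at 0.128, 0.110 and 0.0604 RPKM, with libraries that overlapped from one to the next, and Gbp6 and Gbp8 were at or near 0. In controls the order of the means was Gbp3 at 0.488 ± 0.0924, Gbp2 at 0.374 ± 0.0976, Gbp7 at 0.134 ± 0.0122 and Gbp9 at 0.105 ± 0.0164 RPKM (SD, n = 3 each). The control libraries of Gbp3 and Gbp2 overlapped, and so did those of Gbp7 and Gbp9.

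This order depends on the lengths given to the genes, Gbp7 and Gbp3 among them. The deposited length of Gbp7 is 5614 bases, the same as its longest principal transcript in GENCODE M21, but Gbp7-202, a principal transcript with an equally long coding sequence, has 2497 bases. With the shortest principal transcript of each gene, Gbp7 led with 27.1 ± 1.31 RPKM in LPS libraries, above Gbp3 at 23.5 ± 0.906 and Gbp2 at 19.0 ± 1.79, and no library of one gene overlapped those of another. With the longest, Gbp3, at 2682 bases instead of the deposited 3265, led with 23.0 ± 0.888 RPKM. Gbp5, with 1 principal transcript, then stood at 1.38 ± 0.189 RPKM, and its libraries overlapped those of Gbp9 both with the longest (1.17 ± 0.244 RPKM) and with the shortest Gbp9 transcript (1.90 ± 0.396 RPKM). These lengths were chosen after the data had been seen, and which transcript was made in these cells was not measured.

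**Figure D3:**
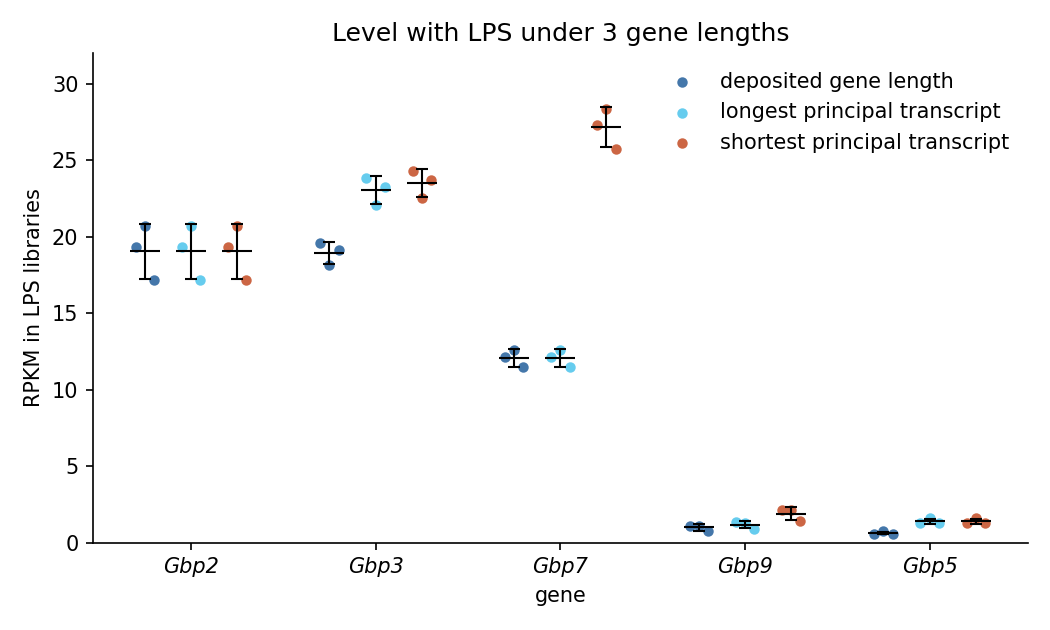
RPKM of the 5 most abundant GBP genes in the 3 LPS libraries under 3 gene lengths, as points per library with mean and SD in black. Gbp7 lies below Gbp2 and Gbp3 with the deposited length (12.1 RPKM) and above them with its shortest principal transcript (27.1 RPKM).

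The make-up of the summed GBP RPKM was compared between groups. Gbp7 supplied 12.2 ± 2.49% of the summed GBP RPKM in controls and 23.2 ± 0.329% with LPS (SD, n = 3 each). With the shortest principal transcripts its share was 20.1 ± 3.46% in controls and 37.0 ± 0.480% with LPS. The values that follow use the deposited lengths. Gbp3 went the other way, from 43.6 ± 3.92% to 36.5 ± 2.47%, and Gbp9 from 9.59 ± 2.11% to 1.90 ± 0.321%. For these 3 genes the control and LPS libraries did not overlap, under the deposited length and under both principal transcript lengths (p = 0.1 each with the deposited length, two-sided exact permutation test, the smallest possible). The share of Gbp2 overlapped between groups, with 33.2 ± 4.67% in controls and 36.6 ± 1.92% with LPS (p = 0.5, two-sided exact permutation test).

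**Figure D4:**
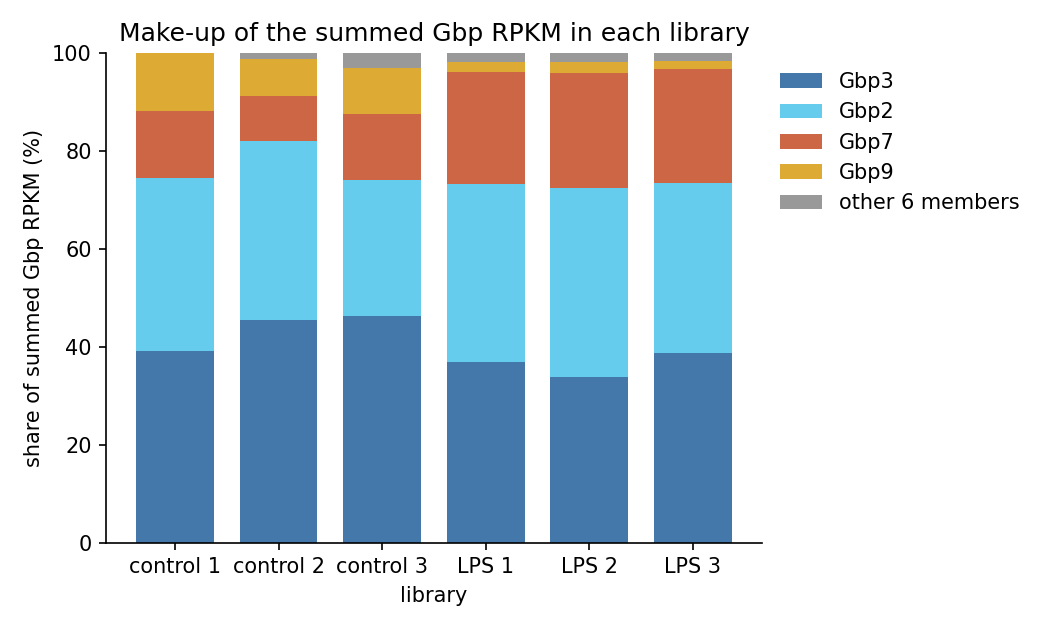
Share of each GBP gene in the summed GBP RPKM of each library, in percent, with deposited gene lengths and stacked bars that add up to 100. The Gbp7 share is larger in all 3 LPS libraries (22.9% to 23.5%) than in all 3 controls (9.34% to 13.8%), and the Gbp9 share is smaller.

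The change in the ratio of a pair of genes does not depend on their lengths. The ratio of Gbp7 to Gbp3 rose by 1.21 on the log2 scale with LPS, and that of Gbp7 to Gbp2 by 0.80. In both ratios all LPS libraries lay above all controls (p = 0.1 each, two-sided exact permutation test, the smallest possible; adjusted p = 0.15 over the 3 ratios compared). The ratio of Gbp2 to Gbp3 moved by 0.40 and its groups overlapped (p = 0.2, exact permutation test, adjusted p = 0.2). The control side of these ratios rests on 12 to 34 counts per gene and library. Leaving out each library in turn gave 0.99 to 1.38 for Gbp7 to Gbp3, 0.55 to 1.00 for Gbp7 to Gbp2 and 0.24 to 0.53 for Gbp2 to Gbp3.

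No tested neighbour of either cluster was an up-regulated DEG, but so few were tested that this is near the 2.4% of all tested genes. Within the chromosome 3 span only Gm43802 and Mir6381 are annotated besides the GBP genes, and both had 0 counts, as had the pseudogenes Gbp2-ps and Gbp11. Of the 5 protein-coding genes on each side of the chromosome 3 cluster, 6 were tested and 0 were DEG in either direction by edgeR, with log2FC from -0.38 to 0.23, against 2.4% of tested genes up-regulated and 0.252% down-regulated. By an adjusted p alone, 1 of these 6 was higher and 1 lower, near the 18.6% and 15.7% of all tested genes. The nearest tested neighbours were Pdlim5, 98282 bases before (log2FC 0.13, edgeR adjusted p = 0.159), and Kyat3, 63043 bases after (log2FC -0.07, edgeR adjusted p = 0.713). Beside the chromosome 5 cluster 8 of 10 genes were tested and 1 was a DEG, Zfp951, 154080 bases before, which fell from 13, 20 and 12 counts to 1, 5 and 5 (log2FC -1.87, edgeR adjusted p = 0.015). Zfp951 passed the filter on low counts only through its control libraries, so a difference was built into its passing. By an adjusted p alone 1 of these 8 was higher and 2 were lower, on the same background of 18.6% and 15.7%, the higher one being Lrrc8d (log2FC 0.86, edgeR adjusted p = 3.87e-09). The nearest tested gene on the other side, Lrrc8b, 122077 bases after, had a log2FC of 0.03.

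The pathway that leads from LPS to GBP genes was described with a list of 21 genes, of which 19 were tested. After LPS 11 of them were higher and 3 lower by an adjusted p under 0.05, against 18.6% and 15.7% of all tested genes, and 5 were up-regulated DEG, beside 2.4%. The interferon genes of the list were at or near 0, since Ifng had 0 counts in all libraries and Ifnb1 had 0 counts in controls and 1, 1 and 0 with LPS. The DEG were the interferon-activated factors Stat2 (log2FC 2.24, edgeR adjusted p = 3.58e-11) and Irf9 (2.08, 8e-12), the interferon regulatory factor Irf7 (3.97, 6.36e-15), and the feedback inhibitors Socs1 (2.37, 0.000128) and Socs3 (2.08, 8.21e-14). Socs1 passed the filter on low counts only through its LPS libraries. The median log2FC of the 19 was 0.55, beside 0.0036 over all genes tested. The other higher genes were the kinases Tyk2 (log2FC 0.92, edgeR adjusted p = 8.13e-09) and Jak1, the gene with the highest mean CPM of the list (0.22, 0.00134), the TRIF gene Ticam1 (0.81, 1.73e-06), the receptor gene Ifngr2 (0.56, 2.56e-07), Irf1 (1.30, 5.46e-08) and Irf2 (0.55, 0.000393). The 3 lower genes were Tlr4, which fell by 0.52 on the log2 scale, Irf8 by 0.41 and Ifngr1 by 0.29. Only 2 genes were lower with DESeq2, and also without control replicate 1, LPS replicate 1 or LPS replicate 2.

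Among the immunity-related GTPases, the smaller interferon-inducible GTPases that act on the same vacuoles, 5 of 7 genes were tested and 4 were up-regulated DEG, beside 2.4% of all tested genes. Irgm1, with the highest mean CPM of the list, rose from 26.0 to 236 CPM (log2FC 3.18, edgeR adjusted p = 5.85e-15), Irgm2 had a log2FC of 3.64 and Igtp one of 3.58. Iigp1 had 0, 2 and 3 counts in controls and 21, 23 and 39 with LPS, at least 10.1-fold higher, and passed the filter only through LPS libraries. The list's median log2FC was 3.58, or 3.33 with Iigp1 at its bound. Tgtp1 and Tgtp2, below the filter on low counts, had at most 1 count in a control library and 3 to 8 with LPS.

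Of the other large GTPases 12 genes were tested and 3 were up-regulated DEG, beside 2.4% of all tested genes. These were the antiviral dynamin-like genes Mx1 (log2FC 6.19, edgeR adjusted p = 5.16e-10) and Mx2 (6.03, 1.3e-11) and the interferon-inducible giant GTPase gene Gvin1 (2.79, 0.000116). All 3 passed the filter through their LPS libraries, with 0 control libraries of Mx1 and Mx2 and 1 of Gvin1 above the cutoff, so a difference was built into their passing and nothing is read from their share. The atlastins, which share the GBP fold, and the dynamins and mitofusins held log2FC values from -0.16 to 0.33, and the median of the list was -0.0044. Atl3, with the highest mean CPM of the list, fell by 0.16 in log2 CPM (adjusted p = 0.00965 by edgeR).

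The list of genes on the route from GBP proteins to the inflammasome had 9 tested members, of which 7 were higher, 0 were lower and 4 were up-regulated DEG, beside 18.6%, 15.7% and 2.4% of all tested genes, with a median log2FC of 0.85. The DEG were Casp4, the gene of caspase-11 (log2FC 2.11, edgeR adjusted p = 5.15e-12), the sensor Nlrp3 (1.53, 1.1e-10), and the cytokine genes Il1b (5.88, 1.16e-08) and Il18 (1.84, 0.00103). A test against a log2FC of 1.5 (glmTreat) called 2 genes of the list, beside 1.47% of all tested genes. Without control replicate 1 the list had 3 up-regulated DEG. Il1b and Il18 passed the filter through their LPS libraries, with 0 and 2 control libraries above the cutoff. Casp4 had 320 to 392 counts in controls and 1377 to 1512 with LPS, and its groups did not overlap. Ninj1, which ruptures the dying cell's membrane, had the highest mean CPM of the list and rose by 0.85 (edgeR adjusted p = 1.46e-09).

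Of the genes that modify or recruit GBP proteins, 0 were DEG in 2 lists, beside 2.4% up-regulated and 0.252% down-regulated of all tested genes. With lists this short, 0 cannot be told apart from these shares. Prenylation enzymes attach the lipid that anchors some GBP proteins to membranes, and of 8 tested genes 0 were higher and 1 was lower by an adjusted p, beside 18.6% and 15.7% of all tested genes, with a median log2FC of 0.012. The lower gene was Fdps, which makes farnesyl diphosphate and fell by 0.78 in log2 CPM (adjusted p = 0.00232 by edgeR), and Zmpste24, with the highest mean CPM of the list, had a log2FC of 0.04. The conjugation of ATG8 proteins, which helps to load GBP proteins on vacuoles, was represented by 10 tested genes, of which 2 were higher, near the 18.6% of all tested genes, and 0 lower, with a median of -0.025. The higher genes were Atg16l1 (log2FC 0.29, edgeR adjusted p = 0.0107) and Gabarapl1 (0.17, 0.0205), but 0 genes were higher without control replicate 3 or LPS replicate 3. Gabarap, with the highest mean CPM of the list, had a log2FC of -0.02 (edgeR adjusted p = 0.776).

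**Figure D5:**
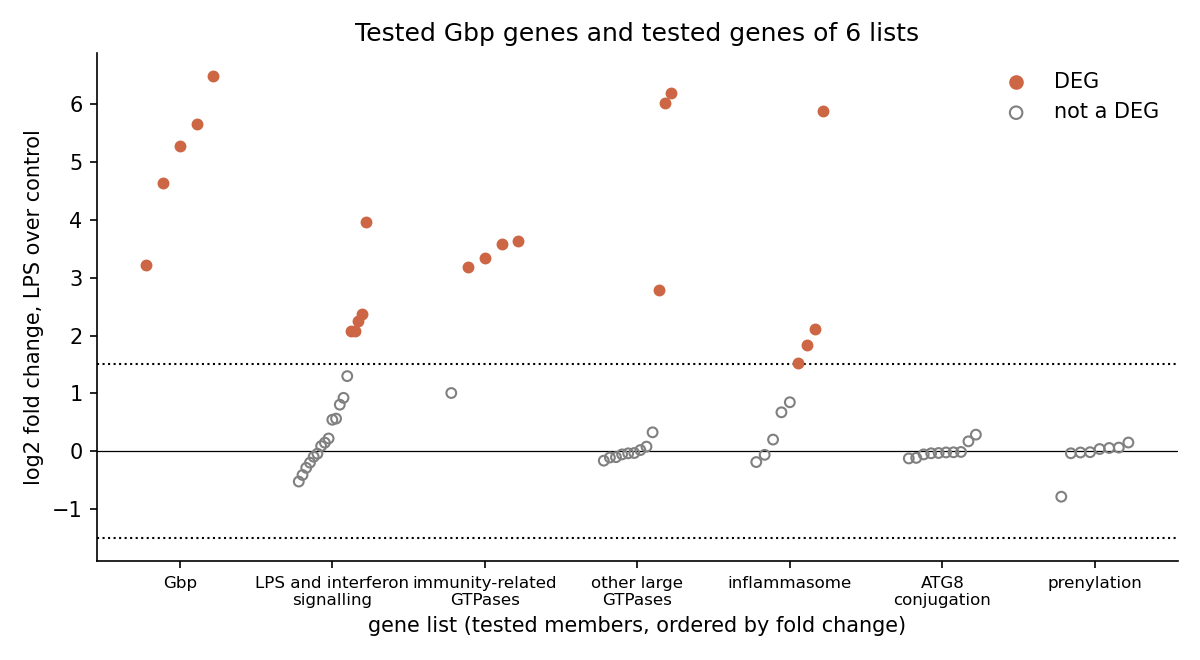
The log2FC of LPS over control for the tested GBP genes and for tested genes of 6 lists, with filled points for DEG, open points for other genes, and Gbp5 and Iigp1 at their lower bounds. GBP genes lie between 3.22 and 6.48, the range that holds 3 of the 4 immunity-related GTPase DEG, Mx1, Mx2, Irf7 and Il1b. Genes of ATG8 conjugation and prenylation lie between -0.78 (Fdps) and 0.29 (Atg16l1).

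The genes with the profile nearest to the mean of the 5 tested GBP genes, by Euclidean distance of centred log2 CPM over the 6 libraries, were Acod1 (distance 0.326), Ifit2 (0.487), Oasl2 (0.518), Ifi209 (0.548) and Col5a3 (0.557). The log2FC of the first 4 were 4.71, 4.59, 5.19 and 5.54. Col5a3, with 0, 0 and 1 counts in controls and 49, 59 and 63 with LPS, was at least 20.8-fold higher. With 2 groups of 3 libraries such a distance reflects little more than the size of the change between groups and the spread around it.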

How the data were processed

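RNA-seq reads of 6 N9 libraries were counted per gene with featureCounts 1.5.0-p3 on mm10, as the submitters' processing notes name them, and the authors deposited a table of raw counts for 54532 genes, with gene positions and lengths. The aligner, annotation, strand setting, read length and treatment of reads matching several genes are not given in the sources used here. For all 10 GBP genes the deposited position and length equal those of GENCODE M21. A second deposited table holds the authors' fold changes and p-values, made with DESeq2, and 18 columns of values per sample and 2 of group means, none of which were used.

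Counts were tested with edgeR 4.0.16 in R 4.3.3 (quasi-likelihood, TMM, filterByExpr, prior count 0.125, no replicate term), and p-values were Benjamini-Hochberg adjusted over the 12296 genes tested. The SE of a log2FC was derived from the F statistic of its test. CPM and RPKM used TMM library sizes, and single values were compared with exact permutation tests (SciPy 1.17.1). Where all controls had at most 3 counts, the fold is a bound against 3 counts in each control library. Reads carry no molecular identifiers, so such limits cover counting error only. Alternatives were DESeq2 1.42.0, RLE factors, other filters, dispersions and prior counts, glmTreat, the replicate number as a term, each library left out, and, added after seeing the data, control replicate 1 alone and 2 other gene lengths. On counts simulated for this comparison, edgeR called 198 of 200 changed genes among 12281 tested, and 0 unchanged ones. The changed genes were drawn from well-counted genes and given changes beyond the log2FC threshold, with a common dispersion for all genes. Calls from control counts as low as those of the GBP genes were thus not simulated.

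Coding sequences were taken from GENCODE M21 and aligned with Biopython 1.88, gaps left out of the identity. Genes named are all members, every DEG and the gene with the highest mean CPM of 6 lists, DEG and nearest tested neighbours of each cluster and the 5 nearest profiles. Other genes of the lists were named after their values were seen. The members and lists were chosen with earlier results of these data known. Marker lists for microglia, hepatocytes, astrocytes, oligodendrocytes, neurons and endothelial cells were used as a check of identity.
One gene of the interferon list is not reported here.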

Additional observations from a re-analysis of the deposited data

How the results depend on the processing

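All 5 GBP DEG kept their direction and their call under every alternative that tested them, and the number of GBP DEG was 5 in each fit with 1 library left out. Leaving out each library gave log2FC of 6.41 to 6.54 for Gbp7, 5.48 to 5.86 for Gbp2, 5.16 to 5.42 for Gbp3 and 3.13 to 3.39 for Gbp9. The fitted log2FC of Gbp5, which is no bound, ran from 5.52 to 9.14, the highest without control replicate 3. With control replicate 1 as the sole control, which assumes that it varies like the LPS libraries, they were 6.36, 5.67, 5.52 and 2.98, and 9.12 for Gbp5. DESeq2 called 7 GBP genes. Without the filter on low counts 8 GBP genes were DEG and 8 were higher, with and without robust dispersion, the added genes being Gbp2b, Gbp4 and Gbp10 (adjusted p up to 0.011, 0.0167 and 0.0676 over the fits that tested them, the last with control replicate 1 alone). Of the lists, the 4 inflammasome DEG fell to 2 with glmTreat and to 3 without control replicate 1, the 3 other large GTPase DEG and the 5 interferon DEG to 2 and 4 with glmTreat, and the 3 lower interferon genes to 2 with DESeq2, with control replicate 1 alone, and without control replicate 1, LPS replicate 1 or LPS replicate 2. The ATG8 genes that were higher numbered 1 with DESeq2 and 0 with control replicate 1 alone, and 0 to 2 with 1 library left out (0 without control replicate 3 or LPS replicate 3, and 1 without control replicate 1 or LPS replicate 2). With control replicate 1 alone, 0 prenylation genes and 0 other large GTPases were lower, and 1 to 2 of the latter with 1 library left out, the 2 without control replicate 1.

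With the shortest and the longest principal transcripts, the share of summed GBP RPKM with LPS was 25.9% and 33.3% for Gbp2, 32.1% and 40.4% for Gbp3 and 37.0% and 21.1% for Gbp7, and with the shortest 2.58% for Gbp9. Plain library totals gave 51.0-fold and 9.78-fold for the summed chromosome 3 and 5 members. The members below the filter held 2 control counts in all, which leaves their summed ratio at 34.0 with an exact 95% counting interval of 9.03 to 287.

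Same-numbered libraries deviated together only weakly (r = 0.14, 0.059 and -0.0042), so the numbers were not treated as pairs. With the replicate block 5 GBP genes were DEG (Gbp7 6.48, Gbp2 5.66, Gbp3 5.27, Gbp9 3.21), and 297 genes were up-regulated and 32 down-regulated in all. The depth limits the low members, since 3 counts are 0.161 to 0.19 CPM.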
